A study of Mus musculus with 4 samples.

Results

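The genes followed here are 10 genes carried mainly by neutrophils, read in mouse hearts exposed to cyclophosphamide (CY), to acrolein, or to CY after N-acetylcysteine (NAC). They are S100a8, S100a9, Retnlg, Mmp8, Mmp9, Csf3r, Cxcr2, Clec4d, Clec4e and Il1r2. They were chosen by name, as every probe that the array files assign to one of them, which gave 12 probes of the 56605 on the array and 10 genes of 37008 gene or transcript names. Mmp9 and Il1r2 had 2 probes each and every other gene had 1.

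All hearts came from female C57BL/6J mice, with no engineered allele named, 6 weeks old by the labels and slightly younger by the study's methods. The control group (NS) received normal saline. The treated groups received CY at 400 mg/kg, acrolein (a toxic aldehyde formed when CY is metabolised) at 5 mg/kg, or NAC (an antioxidant that traps acrolein) at 200 mg/kg ahead of CY at 400 mg/kg (NAC + CY). Injections were intraperitoneal, once daily on 2 days, and hearts were taken 3 h after the last one, although part of the study's text names a later time. RNA of whole heart tissue was hybridised to 4 single-colour Agilent arrays on 1 slide, 1 array for each condition, so the differences below have no replicate check, and no test was possible. Whether an array held RNA of 1 mouse or of a pool is not given in the sources used here. The series speaks of cardiomyocytes, but the RNA came from heart tissue, in which other cells and blood are present too.

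Neutrophils are short-lived white blood cells that leave the bone marrow, enter inflamed tissue and release proteases and antimicrobial proteins. Granulocyte colony-stimulating factor, read by the receptor Csf3r, drives their production, and chemokines read by Cxcr2 draw them out of the marrow and into tissue. Mature neutrophils store the S100a8 and S100a9 proteins in very large amounts, and the pair forms calprotectin, an alarmin that activates other immune cells. In bulk tissue, more cells of a type and more RNA per cell cannot be told apart.

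Signals are normalised fluorescence in arbitrary units, and the error after ± is the scanner software's error for the spot, which leaves out the spread between mice. Signals of different genes cannot be compared, since each probe has its own efficiency. A signal that the software did not place well above background is called dim. A gene entered a comparison when its probe was flagged present (P flag) on either array. Genes were called higher where the Z-score reached 2 and the ratio reached 1.5, and lower where the Z-score lay equally far below 0 and the ratio was 0.66 or less. To obtain the Z-score, the mean log2 ratio of 200 probes of like signal was subtracted and the remainder divided by their SD. Of all probes, 47.1% were well above background on NS and a slightly larger share on the other arrays. The SD between spots of a repeated probe was 0.06 to 0.08 (log2), and no spot was saturated. All 10 heart muscle marker genes were well above background on every array, and neither Actb nor Gapdh was called in any comparison. The 3 comparisons with NS share the single NS array, so a low value there raises all 3 ratios together.

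The members were lowest on the NS array and mostly highest on the NAC + CY array. Of the 9 members with a P flag on some array, 8 had their lowest signal on NS and 7 their highest after NAC + CY. Csf3r was an exception to both, and Clec4d was highest after CY. For Mmp9 and Clec4e the NS array was one of several dim arrays, whose values have no order. The NAC + CY signal also overlapped within spot errors with that of CY for Mmp9 and Clec4e, and with that of acrolein for Retnlg. The number of these 9 genes that were well above background was 4 on NS, 8 after CY, 7 after acrolein and 9 after NAC + CY. The choice of genes partly set these counts, since a P flag on any array was required. Mmp9 entered by its flag on NAC + CY alone, and Cxcr2, dim on every array, was left out. The counts therefore describe the arrays and do not test a difference between them.

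**Figure D1:**
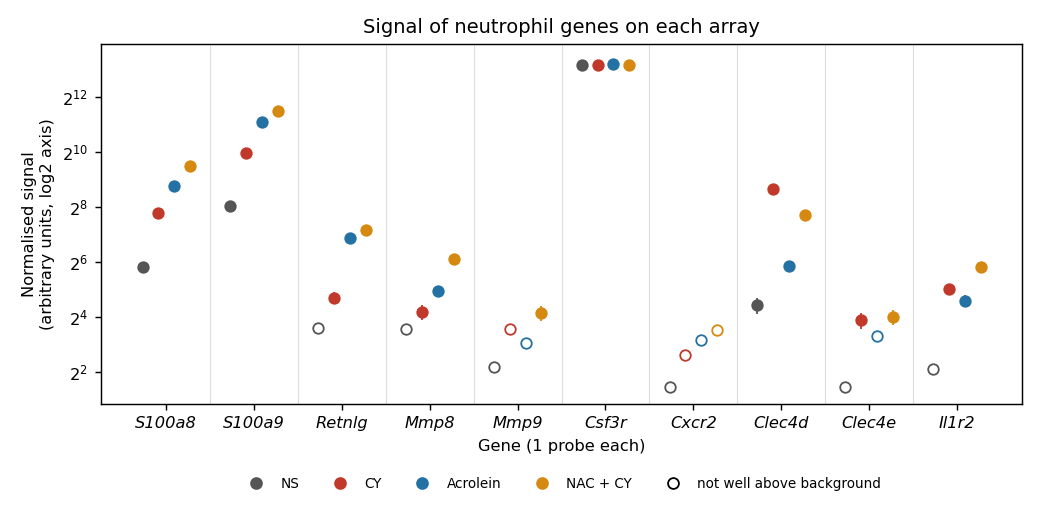
Normalised signal (arbitrary units, log2 axis) of the 10 neutrophil genes on each array, with 1 probe a gene and 1 array a condition. Filled points are well above background and carry the software's spot error, often smaller than the point, and open points are dim; S100a8 climbs from 56.2 on NS to 714 after NAC + CY, Clec4d peaks after CY at 405, Csf3r stays between 9097 and 9407, and Cxcr2 is dim on all arrays.

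The alarmin genes S100a8 and S100a9 were well above background on all 4 arrays and were called higher than NS in every treated group. S100a8 had a signal of 56.2 ± 6.49 on NS, 221 ± 22.3 after CY, 435 ± 43.6 after acrolein and 714 ± 71.4 after NAC + CY. S100a9 had a signal of 265 ± 26.7 on NS, 999.9 ± 100 after CY, 2211 ± 221 after acrolein and 2875 ± 288 after NAC + CY. Both genes kept the same order of arrays, NAC + CY above acrolein above CY above NS. No pair of neighbours in that order overlapped within 1 spot error. The log2 ratio of S100a8 to NS was 1.97 after CY (Z-score 2.95), 2.95 after acrolein (Z-score 9.02) and 3.67 after NAC + CY (Z-score 6.67). That of S100a9 was 1.92 after CY (Z-score 3.23), 3.06 after acrolein (Z-score 11.4) and 3.44 after NAC + CY (Z-score 6.12). In folds, S100a8 rose 3.93-fold after CY, 7.74-fold after acrolein and 12.7-fold after NAC + CY, and S100a9 rose 3.78-fold, 8.35-fold and 10.9-fold.

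S100a8 and S100a9 lie side by side on chromosome 3 with 0 genes between them in the RefSeq gene table. Their probes lie on mm9 at chr3:90473778-90473837 (S100a8, forward strand) and chr3:90496573-90496632 (S100a9, reverse strand). The first 30 bases of each 60-base probe are shown, since these sequences are what the alarmin signals were read with.
S100a8 probe: cttgttcagagaattggacatcaatagtga
S100a9 probe: gtctaaagggaatggcttactcaatggcct

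Since both alarmin genes changed together, the 250 bases before their RefSeq starts (assembly GRCm38.p6, a later build than that of the probes) were searched on both strands for the TATA box TATAAA, the C/EBP pattern TTNNGNAA, the PU.1 core GAGGAA, the STAT pattern TTCNNNGAA and the NF-kappaB motif. C/EBP proteins and PU.1 are the transcription factors best known from the myeloid lineage. Capitals mark matches on either strand.
S100a8 promoter (chr3:90668821-90669070, forward strand): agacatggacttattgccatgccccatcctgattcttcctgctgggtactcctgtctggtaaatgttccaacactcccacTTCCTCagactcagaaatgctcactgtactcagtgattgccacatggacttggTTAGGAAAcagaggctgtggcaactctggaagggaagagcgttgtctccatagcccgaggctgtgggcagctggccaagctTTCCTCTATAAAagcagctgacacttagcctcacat
S100a9 promoter (chr3:90695722-90695971, reverse strand): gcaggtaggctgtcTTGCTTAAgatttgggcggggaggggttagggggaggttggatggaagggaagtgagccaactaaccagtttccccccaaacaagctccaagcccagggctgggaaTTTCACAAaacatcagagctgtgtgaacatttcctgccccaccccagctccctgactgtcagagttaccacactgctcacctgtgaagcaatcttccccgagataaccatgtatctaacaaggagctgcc
Both windows hold the C/EBP pattern, at 1 place before S100a8 and at 2 places before S100a9. The S100a8 window also has TATAAA starting 30 bases before the start, directly after a reverse match of the PU.1 core, and a further reverse match of that core starting 170 bases before it. Of the 9 members with a promoter in the table (Mmp9 is not among them), 6 held the C/EBP pattern and 6 the PU.1 core, against 36.8% and 23.3% of the 32851 promoter windows of the same length. The longer PU.1 form GAGGAAGT, which overlaps the core, was found before S100a8 and Mmp8 and in 2.44% of all windows. TATAAA preceded S100a8 and Clec4e (12.4% of all windows), the STAT pattern Il1r2 alone (7.02%) and the NF-kappaB motif Csf3r alone (17.6%). A match describes letters in the window and not a bound site.

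Retnlg, which encodes a small secreted protein of the resistin family found in neutrophils and marrow, was dim on NS and was the member with the largest log2 gain from the CY array to the acrolein and NAC + CY arrays. Its signal was 12.2 ± 4.0 on NS (dim), 26.1 ± 4.0 after CY, 118 ± 12.2 after acrolein and 145 ± 14.8 after NAC + CY. It was called higher after acrolein (log2 ratio 3.28, Z-score 8.07) and after NAC + CY (3.57, Z-score 6.23), and was not called after CY (1.1, Z-score 1.38). Because NS was dim, these are bounds, of at least 7.18-fold after acrolein and at least 8.78-fold after NAC + CY. The acrolein and NAC + CY signals overlapped within their spot errors, and both stood apart from CY. The probe lies on mm9 at chr16:48874468-48874527, forward strand, and its first 30 bases are given because of that gain. The RefSeq window before Retnlg holds 1 match of the C/EBP pattern, in capitals.
Retnlg probe: gctgagaacctagctttgaaatgaagacta
Retnlg promoter (chr16:48872358-48872607, forward strand): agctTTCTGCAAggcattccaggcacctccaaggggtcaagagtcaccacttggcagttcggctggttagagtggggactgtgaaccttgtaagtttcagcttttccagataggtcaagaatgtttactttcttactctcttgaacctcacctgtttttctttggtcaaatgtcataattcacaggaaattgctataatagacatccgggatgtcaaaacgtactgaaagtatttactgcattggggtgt

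The granule proteases Mmp8, the neutrophil collagenase, and Mmp9, a gelatinase, gave weak signals. Mmp8 had a signal of 11.7 ± 3.71 on NS (dim), 18.3 ± 3.32 after CY, 31.0 ± 4.17 after acrolein and 69.3 ± 7.43 after NAC + CY, so its order of arrays was that of the alarmin genes. It was called higher after acrolein (log2 ratio 1.41, Z-score 2.56, at least 1.88-fold) and after NAC + CY (2.57, Z-score 3.24, at least 4.2-fold) and not after CY (0.64, Z-score 0.53). Mmp9 was above background on 1 array, NAC + CY, by 1 of its probes, at 17.8 ± 3.47. That probe was dim on NS (4.52), CY (11.9) and acrolein (8.2), and its log2 ratio of 1.98 after NAC + CY was not called (Z-score 0.47, at least 1.08-fold). Its 60 bases span 1210 bases of the genome (mm9 chr2:164779091-164780300), so it crosses a splice junction. The other Mmp9 probe, further along the transcript, was dim on all 4 arrays (3.13 to 7.70).

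Clec4d and Clec4e encode C-type lectin receptors of myeloid cells that bind glycolipids of mycobacteria and other microbes, and their genes are neighbours on chromosome 6 with 0 genes between them in the RefSeq table. Among the members well above background on every array, Clec4d had the widest range, and its order of arrays was its own. Its signal was 21.6 ± 4.2 on NS, 405 ± 40.6 after CY, 57.9 ± 6.47 after acrolein and 208 ± 21.0 after NAC + CY, and all 4 arrays were well above background. It was called higher than NS after CY (log2 ratio 4.23, Z-score 6.37, 18.7-fold), after acrolein (1.42, Z-score 3.44, 2.68-fold) and after NAC + CY (3.27, Z-score 5.52, 9.64-fold). The 2 groups that received CY thus lay above the acrolein group for Clec4d, whereas for S100a8, S100a9, Retnlg and Mmp8 acrolein lay above CY alone.

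Clec4e was close to the background. Its signal was 2.70 on NS (dim), 14.9 ± 2.96 after CY, 9.83 after acrolein (dim) and 16 ± 2.98 after NAC + CY. Its log2 ratios of 2.46 after CY (Z-score 0.47) and 2.57 after NAC + CY (Z-score 0.58) were not called, and both bright signals lay below the lowest NS signal accepted as well above background (16.5), so no fold is given. The probe and promoter of Clec4d and the promoter of Clec4e are shown because these adjacent genes gave a bright member and one near background. The Clec4d probe lies on mm9 at chr6:123224788-123224847, forward strand. Both windows hold the C/EBP pattern, at 3 places before Clec4d and 2 before Clec4e, and only the Clec4e window has TATAAA, starting 29 bases before the start.
Clec4d probe: aggatttgtaaattacctggaataacattc
Clec4d promoter (chr6:123261857-123262106, forward strand): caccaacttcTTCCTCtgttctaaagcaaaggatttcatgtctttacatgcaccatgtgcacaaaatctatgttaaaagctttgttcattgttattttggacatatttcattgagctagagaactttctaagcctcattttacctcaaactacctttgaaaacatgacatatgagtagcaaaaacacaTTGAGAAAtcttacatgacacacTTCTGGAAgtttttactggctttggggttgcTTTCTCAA
Clec4e promoter (chr6:123289872-123290121, reverse strand): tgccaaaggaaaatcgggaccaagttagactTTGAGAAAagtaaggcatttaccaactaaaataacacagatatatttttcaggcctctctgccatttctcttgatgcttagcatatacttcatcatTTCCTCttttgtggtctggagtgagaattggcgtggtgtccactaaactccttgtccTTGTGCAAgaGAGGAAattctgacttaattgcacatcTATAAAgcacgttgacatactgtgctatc

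Il1r2 encodes the decoy receptor of interleukin-1, which binds the cytokine without signalling. By its brighter probe (mm9 chr1:40182006-40182066) the signal was 4.26 on NS (dim), 32.5 ± 4.30 after CY, 24.1 ± 3.62 after acrolein and 56.4 ± 6.24 after NAC + CY. It was called higher after NAC + CY (log2 ratio 3.73, Z-score 4.26, at least 3.42-fold). After CY the log2 ratio was 2.93 (Z-score 1.84, at least 1.97-fold) and after acrolein 2.50 (Z-score 1.23, at least 1.46-fold), neither of them called. The CY and acrolein signals were separated by little more than their spot errors. A second probe, which crosses a splice junction (mm9 chr1:40168971-40171918), was dim on all 4 arrays at 2.96 to 9.06, so Il1r2 rests on 1 probe.

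The receptors that give this set its textbook identity were not informative here. Cxcr2, the receptor of the neutrophil-attracting CXC chemokines, was dim on all 4 arrays (2.75 on NS, 6.12 after CY, 9.03 after acrolein and 11.4 after NAC + CY), so it entered no comparison. Csf3r, the receptor of granulocyte colony-stimulating factor, had a signal of 9146 ± 915 on NS, 9194 ± 919 after CY, 9407 ± 941 after acrolein and 9097 ± 909.7 after NAC + CY. Its log2 ratios to NS were 0.01, 0.04 and -0.01, none called, and the 4 values lay well within the spot errors.

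The Csf3r signal may not belong to Csf3r alone, since the probe (mm9 chr4:125721478-125721537) holds sequence that occurs elsewhere. Its last 30 bases are given, with the final 18 in capitals.
Csf3r probe: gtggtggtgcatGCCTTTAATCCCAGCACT
These letters are part of the B1 family of short interspersed repeats, copies of which lie in many mouse transcripts. Csf3r had the only one of the 12 member probes with any 18-base stretch in common with the RefSeq promoter windows (6 genes of 27025) or with other probes (6 of 56605). The stretch printed in capitals was found in the promoter windows of 1 gene of 27025 and in 2 of those other probes. Both of these probes were well above background on all 4 arrays, and neither was called in any treated group against NS. How much of the Csf3r signal came from other transcripts was not tested.

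Counted over all members, 3 of the 8 that entered the comparison of CY with NS were called higher (Clec4d, S100a8 and S100a9) and 0 lower, where 2.84% of all 28757 probes were called higher and 2.55% lower. For acrolein, 5 of 7 were called higher (Clec4d, Mmp8, Retnlg, S100a8 and S100a9) and 0 lower, against 1.05% and 1.24% of all probes. For NAC + CY, 6 of 9 were called higher (the same 5 genes and Il1r2) and 0 lower, against 2.32% and 2.28%. The median log2 ratio of the members that entered was 1.95 after CY, 2.50 after acrolein and 3.27 after NAC + CY, and that of all probes was -0.01, 0.01 and 0.01. With each signal raised to at least the lowest one well above background on its array, the members' medians were 0.82, 1.42 and 2.07.

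Members that were dim on NS could enter only through a brighter treated array, so these counts and medians describe and do not support. They numbered 4 of 8 after CY, 3 of 7 after acrolein and 5 of 9 after NAC + CY. When a P flag was required on both arrays, the members called higher were 3 in each comparison, S100a8, S100a9 and Clec4d, and Csf3r was the only other member left. Of all probes kept under that filter, 2.73% were called higher after CY, 0.87% after acrolein and 2.22% after NAC + CY. The SD of the Z-score window differed between probes and comparisons. For Clec4d it was 0.66 log2 units with CY and 0.42 with acrolein. For the brighter of the 2 Il1r2 probes it was 1.41 and 1.19. A log2 ratio of 1.42 (Clec4d) was therefore called after acrolein while one of 2.93 (Il1r2) was not called after CY.

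**Figure D2:**
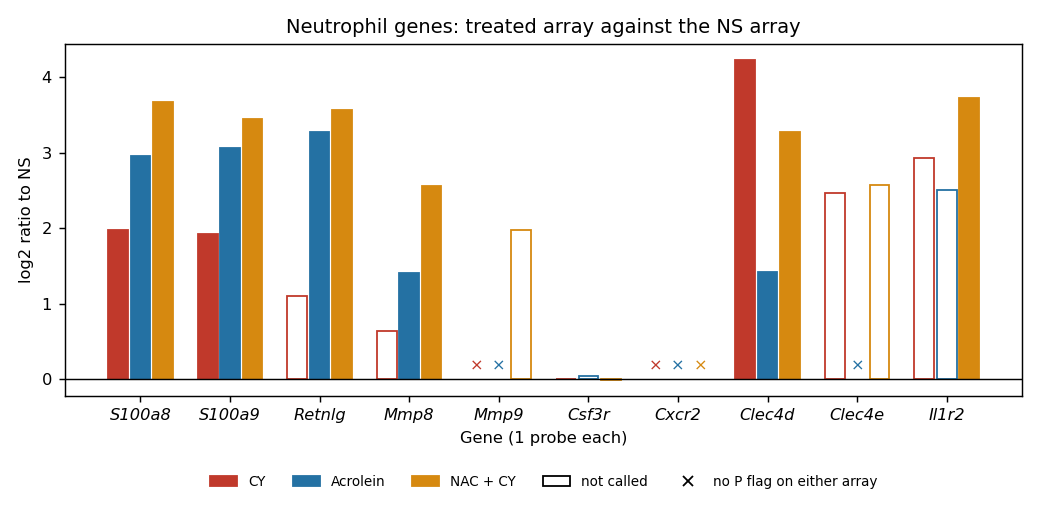
Log2 ratio of each neutrophil gene on the CY, acrolein and NAC + CY arrays to the NS array, 1 array each. Filled bars were called, open bars were not, and a cross marks a gene with no P flag on either array; S100a8, S100a9 and Clec4d were called on all 3 arrays, and the bars of Csf3r lie at 0.04 or less.

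The comparisons with the CY array leave the NS array out. NAC + CY against CY asks what NAC before CY altered, and there the members split. Of the 9 that entered, 4 were called higher after NAC + CY, where 1.25% of 29350 probes were called higher, and 1 lower, where 2.34% were. S100a8 had a log2 ratio of 1.69 (Z-score 4.15, 3.23-fold), S100a9 1.52 (Z-score 5.14, 2.88-fold), Retnlg 2.47 (Z-score 4.29, 5.55-fold) and Mmp8 1.92 (Z-score 3.50, 3.79-fold). Clec4d was the member that fell, with a log2 ratio of -0.96 (Z-score -3.15), from 405 after CY to 208 after NAC + CY. Il1r2 (0.79), Mmp9 (0.58, dim on CY), Clec4e (0.11) and Csf3r (-0.02) were not called. In the same comparison 6 of 11 platelet genes and 7 of 9 red cell genes were called lower, and their part in the members' values was not tested.

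Acrolein against CY, which shares the single CY array with the comparison above, also gave calls in both directions. Of the 8 members that entered, 2 were called higher after acrolein (2.33% of 29639 probes) and 1 lower (2.75%). Retnlg rose by 2.18 on the log2 scale (Z-score 3.27, 4.53-fold) and S100a9 by 1.14 (Z-score 2.53, 2.21-fold). Clec4d had a log2 ratio of -2.81 (Z-score -4.74), so the CY array stood 6.99-fold above acrolein. S100a8 had a log2 ratio of 0.98 that missed the Z-score criterion (1.63). Mmp8 (0.76), Il1r2 (-0.43), Clec4e (-0.60, dim on acrolein) and Csf3r (0.03) were not called either.

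**Figure D3:**
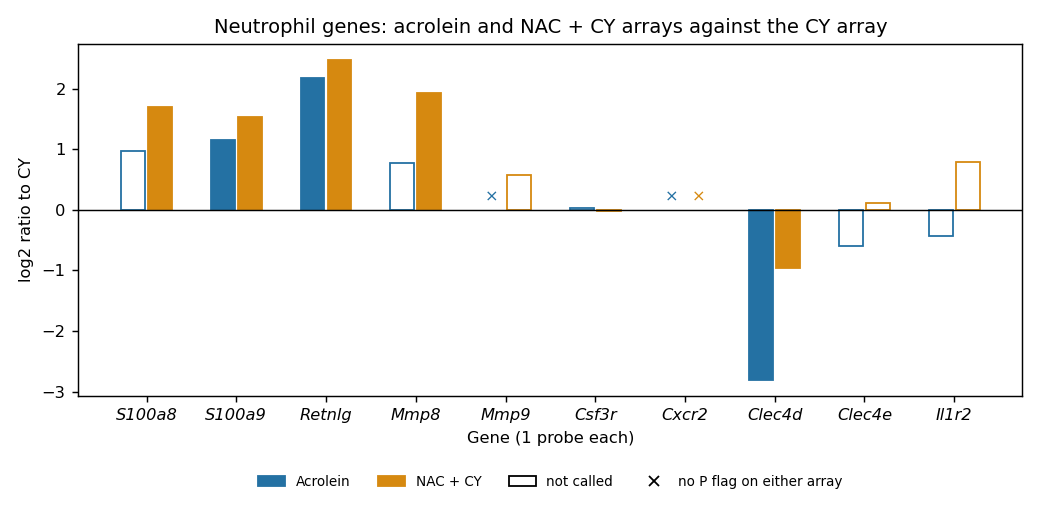
Log2 ratio of each neutrophil gene on the acrolein and NAC + CY arrays to the CY array, 1 array each. Filled bars were called, open bars were not, and a cross marks a gene with no P flag on either array; Clec4d is the gene called lower in both, at -2.81 and -0.96, and Retnlg has the highest bars, at 2.18 and 2.47.

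How alike the members were was measured as the distance of each gene's centred log2 profile over the 4 arrays from the members' median profile, which stood at -1.99 on NS, -0.0025 after CY, 0.21 after acrolein and 1.34 after NAC + CY. The distance was 0.66 for S100a8 and 0.78 for S100a9, against 2.28 for Clec4d and 2.40 for Csf3r, the other members well above background on every array. Each member helps to set the median, and the 5 that were dim on NS enter with background values there, so their distances are not given. Among 20710 other genes with a P flag on some array, the nearest to the median profile were 2610020P09Rik (0.70), Morn3 (0.70), Bmp3 (0.70), Cstdc4 (0.85) and Stfa2l1 (0.88). Cstdc4 and Stfa2l1 belong to the stefin A family of protease inhibitors, which neutrophils carry. All 5 were dim on 3 arrays and above background after NAC + CY alone, at signals of 16.7 to 21.7, so their likeness rests mostly on values near background, and none of the 5 was called.

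A list of further genes of mature neutrophils gave calls in each comparison. Of 36 on the array, 11 were dim everywhere, among them Cd177, Cxcr1 and Trem3. Ly6g, the antigen that marks mouse neutrophils, had a signal of 197 on NS, 364 after CY, 237 after acrolein and 468 after NAC + CY, and was called after NAC + CY (log2 ratio 1.25, Z-score 3.08). After CY, 4 of 20 were called higher and 0 lower: Wfdc21 (2.39), Hdc (2.15), which makes histamine, Slpi (1.74), a secreted protease inhibitor, and Wfdc17 (1.35). After acrolein 4 of 24 were called higher and 0 lower: Il1b (1.79), Ifitm6 (1.41), the formyl peptide receptor Fpr2 (0.94) and the Fc receptor Fcgr4 (0.73). After NAC + CY 4 of 22 were called higher and 0 lower: Wfdc21 (4.80), Ifitm6 (1.48), Hdc (1.28) and Ly6g. Wfdc21 was dim on NS, so its bounds are at least 3.02-fold after CY and at least 16-fold after NAC + CY. The medians of those that entered were 0.49, 0.24 and 0.33. Wfdc21 had the order of arrays of Il1r2, with a dim signal of 9.47 on NS, then 49.7 after CY, 16.1 after acrolein and 264 after NAC + CY.

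Granule genes made late in neutrophil development differed among themselves. Lcn2, which binds bacterial siderophores, was called higher on all 3 treated arrays, with a log2 ratio of 2.47 after CY, 0.73 after acrolein and 2.70 after NAC + CY. Chil3, a chitinase-like protein, followed the order of the alarmin genes, with a signal of 43.6 on NS, 55.9 after CY, 160 after acrolein and 187 after NAC + CY, and was called after acrolein (1.87) and NAC + CY (2.10). Hp, haptoglobin, which several tissues make, rose after CY (2.62) and NAC + CY (3.94) and fell after acrolein (-0.79). Chil1, dim on NS, was called higher after CY (at least 4.91-fold) and NAC + CY (at least 2.86-fold), and Anxa1 after CY (1.24). In all 4 of 15, 2 of 13 and 4 of 14 late granule genes were called higher after CY, acrolein and NAC + CY, and 0, 1 and 0 lower. Ltf and Ngp, which define these granules, were dim on every array. Of the 11 genes of primary granules and their precursors, 8 were dim on every array, including Mpo, Prtn3 and Ctsg. Elane had a signal of 638 on NS, 528 after CY, 866 after acrolein and 514 after NAC + CY, and neither Elane nor Mki67 was called against NS. Gstm1, a glutathione transferase with a signal of 10402 on NS, was the 1 of 3 called higher after CY and after NAC + CY.

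The ligands and signalling partners of the members were examined next. For the granulocyte colony-stimulating factor axis, the ligand gene Csf3 was dim on all arrays. Socs3, a feedback inhibitor of cytokine receptors, was called higher on all 3 treated arrays (log2 ratio 1.46 after CY, 1.09 after acrolein and 1.80 after NAC + CY), as was the transcription factor Cebpd (0.94, 0.88 and 1.05). Socs3 had a signal of 352 on NS, 967 after CY, 747 after acrolein and 1222 after NAC + CY. Beside the members, 2 of 9 genes of this axis were higher in each comparison with NS, and 2 were lower after NAC + CY, Csf1 (-1.11) and its receptor gene Csf1r (-0.74).

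Among ligands of Cxcr2, Cxcl2, Cxcl3 and Cxcl15 were dim on all arrays. Cxcl1, a main attractant of neutrophils, had a signal of 91.4 on NS, 142 after CY, 177 after acrolein and 168 after NAC + CY, and was called after acrolein (log2 ratio 0.95, Z-score 4.66). Ppbp (3.54) and Pf4 (1.05), chemokines stored in platelets, were called higher after CY. Cxcl12, which holds neutrophils in the marrow, was called lower after CY (-1.61) and NAC + CY (-0.95). Without Cxcr2, 2 of 9 genes were higher and 1 lower after CY, 1 and 0 of 8 after acrolein, and 0 and 1 of 8 after NAC + CY.

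In the interleukin-1 family, Il1b was called higher after acrolein, with a dim signal of 17.7 on NS and 13.4 after CY, 61.0 after acrolein and 21.3 after NAC + CY (log2 ratio 1.79 against NS, at least 3.45-fold). The ligand gene Il1a and the receptor antagonist gene Il1rn were dim on all arrays. Il1rl1, the receptor of interleukin-33, was called lower after NAC + CY (-2.11, at least 3.60-fold), and Irak3, an inhibitor of this signalling, higher after acrolein (0.64). Leaving Il1r2 aside, 0 of 11 genes were called after CY, 2 of 12 were higher after acrolein, and 1 of 12 was lower after NAC + CY.

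Receptors of calprotectin and other S100 genes were mostly not called. Tlr4, a calprotectin receptor, had log2 ratios between -0.18 and 0.07 and was not called. Of 14 genes, 3 were higher after CY, S100a11 (0.97), S100a4 (0.93) and S100a6 (0.89), and none of 15 was called after acrolein or NAC + CY, whose genes with a log2 ratio furthest from 0 were Cd33 (0.55) and S100a4 (-0.71). Beside Clec4d and Clec4e, the lectin genes of the cluster and their signalling partners were called higher in 2 of 11 after acrolein, Clec4n (0.64) and Clec4a1 (0.63), lower in 2 of 11 after CY, Clec5a (-1.55) and Plcg2, and lower in 4 of 11 after NAC + CY, Clec7a (-1.62), Clec5a (-1.37), Clec4b1 (-1.24) and Plcg2. Clec4d thus went the other way from Clec5a and Clec7a after NAC + CY.

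Other metalloproteases and their inhibitors differed from Mmp8. Mmp3, stromelysin, had a signal of 97.3 on NS, 889 after CY, 96.5 after acrolein and 396 after NAC + CY, and was called higher after CY (log2 ratio 3.19) and NAC + CY (2.03). The inhibitor Timp1 was called higher after CY (1.82) with Mmp19 (1.74), and Timp4 lower after CY (-1.44) and NAC + CY (-1.05). After acrolein 0 of 11 genes beside the members were called. Of 15 or 16 genes by which white cells attach to vessel walls, Icam1 alone was called against NS, and it was higher on all 3 arrays (1.14 after CY, 0.66 after acrolein and 1.60 after NAC + CY). Sele, an endothelial selectin, was above background after NAC + CY alone, at 12.7, and was not called.

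Markers of other blood cells moved with the treated arrays as well. Platelet genes were called higher in 7 of 11 after CY, among them Gp9 (log2 ratio 4.42), Clec1b (3.97) and Itga2b (dim on NS, at least 3.15-fold), and in 0 of 8 after acrolein and after NAC + CY. Summed signals, taken over the genes of a list with a P flag on some array, weight each gene by its probe's brightness. That of the 11 platelet genes, most of which was Pf4, was 2993 on NS, 7795 after CY, 2912 after acrolein and 2168 after NAC + CY, and Tubb1 was dim on all arrays. The red cell genes were lower in 9 of 10 after NAC + CY, the array on which the members were highest, with Hbb-b1 at -1.36 and Alas2 at -1.58. Their summed signal, mostly of globin genes, was 366524 on NS, 368119 after CY, 280856 after acrolein and 158432 after NAC + CY, and Rhag and Ahsp were dim on all arrays. After acrolein 1 of 10 red cell genes was lower, and after CY 2 of 10. The part of blood content in the members' signals was not tested.

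T, NK and B cell genes were called lower in part in both groups given CY, and monocyte genes were called in both directions. T and NK cell genes were lower in 3 of 9 after CY and 6 of 9 after NAC + CY, with NS at least 4.76-fold and 4.89-fold above for Cd3d, which was dim on both arrays, and 1 of 10, Gzma (0.70), was higher after acrolein. Their summed signal, most of which was Thy1, Cd4 and Cd3e, was 2548 on NS, 1830.3 after CY, 2758 after acrolein and 1690.2 after NAC + CY. B cell genes were lower in 3 of 8 after CY and 2 of 6 after NAC + CY, with Cd79b at -1.66 and, dim after NAC + CY, at least 7.30-fold lower there, and 0 of 8 were called after acrolein. Their summed signal was 398 on NS, 282 after CY, 429 after acrolein and 256 after NAC + CY. Cx3cr1, of patrolling monocytes, was called lower after CY (-3.89) and NAC + CY (-4.27), and Ccr2, of inflammatory monocytes, after NAC + CY, where it was dim (at least 2.28-fold lower). Of 13 genes on the monocyte list, 1 was higher (Nr4a1) and 1 lower after CY, with a list median log2 ratio of -0.08. After NAC + CY 2 of 13 were higher (Nr4a1 and Ly6c1) and 2 lower, with a list median of -0.10. The summed signal of the monocyte list, most of which was Ly6c1, Ly6c2 and Ms4a4c, was 64823 on NS, 73465 after CY, 68951 after acrolein and 99812 after NAC + CY. Plac8 (0.93), which neutrophils also carry, was the 1 of 14 called after acrolein. Macrophage genes were called in 2 of 17 after CY (Lyve1 and Pf4, higher), 0 of 17 after acrolein and 1 of 17 after NAC + CY (Csf1r, lower). Genes of squamous epithelium, a tissue that is not heart, were called higher in 2 of 7 after CY, Krt14 (2.12) and Sbsn (1.31), lower in 1 of 7 after acrolein, Krt14 (-0.98), and in 0 of 6 after NAC + CY. Their summed signal, most of which was Trp63, was 2274 on NS, 2442 after CY, 2169 after acrolein and 2218 after NAC + CY, and Krt13, Krt4, Dsg3 and Ivl were dim on all arrays. Mast cell and basophil genes were higher in 1 of 7 after CY and after NAC + CY, which was Hdc in both, and lower in 1 of 7 after CY, 1 of 7 after acrolein and 3 of 7 after NAC + CY. Of 10 heart muscle genes 4 were lower after CY, 0 after acrolein and 3 after NAC + CY. What part these other cells had in the members' values was not tested.

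**Figure D4:**
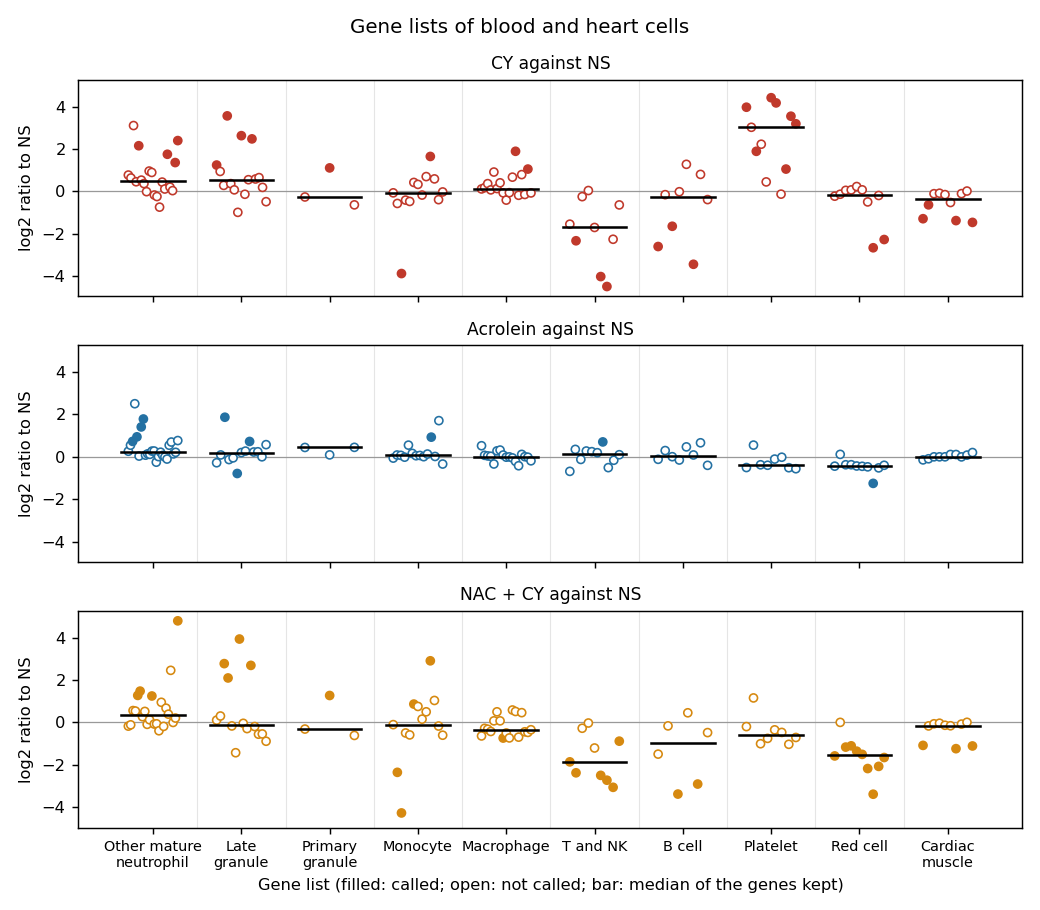
Log2 ratio to NS of the genes of 10 lists on the CY, acrolein and NAC + CY arrays. Each point is 1 gene with a P flag on at least 1 of the 2 arrays, filled where called and open where not, and the black bar is the median of the points, dim signals included; 7 of 11 platelet genes were called higher after CY (median 3.02, or 1.12 with dim signals raised to the floor), 9 of 10 red cell genes lower after NAC + CY (-1.54, or -1.505), and 6 of 9 T and NK cell genes lower after NAC + CY (-1.86, or -1.09).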

How the data were processed

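Heart RNA of 4 conditions was hybridised to single-colour Agilent arrays, 1 array each. The authors labelled cRNA with a low-input kit, scanned the arrays and extracted spots with Agilent Feature Extraction (version 9.5.1.1 by the submitters' notes, 10.7.1.1 by the file headers). Intensity columns were deposited as spot signals after background subtraction, without normalisation, each with an error. The authors' deposited value table holds linear signals of the same arrays as a score column, with a median of 13.9 for every array; its normalisation is not stated in the file.

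Signals of 59305 spots were log2-transformed, quantile-normalised over the 4 arrays and averaged by probe. The study's methods name quantile normalisation of control with each treatment, which was run as an alternative. Of 56605 probes, 30409 carried a P flag on at least 1 array. Z-score and ratio criteria were those of the methods, with a window of 200 probes chosen here. A gene is represented by its P-flagged probe with the highest mean log2 signal. Where one array was dim, the bound sets the brighter signal against the lowest signal well above background on that array, or the dim probe's own if higher. No test was run, since each group has 1 array; the number of arrays limits the precision. The members and the 19 other gene lists were chosen with earlier results of these data known. Named genes are all members, the 5 genes nearest in profile, Actb and Gapdh. From the lists, some of the called genes, of the genes with the largest change and of the defining genes are named, and not all of them. The check that only the Csf3r probe holds repeat sequence, the value without it, and list medians with a floor were added after seeing the data.

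Names came from the RefSeq gene table of GRCm38.p6, matched on accession for 32989 probes, on symbol for 10228 and on synonym for 519, while 12869 probes retained the name in the file. All 10 members matched that table and 9 had a RefSeq promoter sequence. The array files place probes on mm9, and whether a probe lies in coding sequence or in an untranslated region was not analysed here. Calls were tested on simulated data with known changes in probes flagged present on NS and noise of uniform size. That simulation therefore did not cover members dim on NS. Other settings varied the normalisation, the background correction, the treatment of dim probes, the window and the criteria. Further settings took the value table or the median over the probes of a gene. Python 3.11.15 with numpy 2.4.6, pandas 2.3.3 and matplotlib 3.10.9, and limma 3.58.1 in R 4.3.3 (normexp, offset 50), were used.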

Additional observations from a re-analysis of the deposited data

How the results depend on the processing

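The 14 alternatives of processing and the omission of the Csf3r probe turned the direction of no called member. Of members not called, Clec4e and Csf3r changed sign, Csf3r lying between -0.18 and 0.09 over all comparisons. Counts of members called higher moved by over 1.5 times in these cases and by 1.5 times or less in all others: on CY against NS from 3 to 5 with the Z-score centred on the window median and to 6 with a ratio of 2 alone; on acrolein against NS from 5 to 3 with normexp background correction and to 3 with a P flag on both arrays; on NAC + CY against NS from 6 to 3 with a P flag on both arrays; and on acrolein against CY from 2 to 1 with a Z-score of 3. The share of all probes called higher changed as well. On CY against NS it went from 2.84% to 5.46% with that Z-score and 5.47% with that ratio. On acrolein against NS it went from 1.05% to 0.18% with normexp and 0.87% with a P flag on both arrays. On NAC + CY against NS it went from 2.32% to 2.22%, and on acrolein against CY from 2.33% to 0.62%. The 1 lower call of NAC + CY against CY, Clec4d, became 0 with a ratio of 2 alone, where the share of all probes called lower went from 2.34% to 3.05%. The members' median log2 ratio shrank with normexp (offset 50). Against NS it went from 1.95 to 0.49 on CY, from 2.50 to 0.56 on acrolein and from 3.27 to 0.86 on NAC + CY. Against CY it went to 0.34 (NAC + CY) and 0.14 (acrolein). With a floor at the lowest signal well above background, the medians against NS were 0.82, 1.42 and 2.07. Without a filter on dim probes that of acrolein was 1.79. With a P flag on both arrays the median of NAC + CY against CY was 1.16 and that of acrolein against CY 0.76, as they also were without the Csf3r probe. The median over probes repeats the main run for every member, since the second probes of Mmp9 and Il1r2 had no P flag on any array. That setting could therefore change no call. The value table holds nearly the same log2 signals as the main run. S100a9 kept its call against NS in all 14 settings with a value on all 3 treated arrays. S100a8 kept it in 13 of 14 on CY, being lost at a Z-score of 3, and in all 14 on the other arrays. Clec4d kept its call in all 14 on CY and NAC + CY and in 13 on acrolein, where normexp gave 0.56, and Mmp8 in 11 of 13 on acrolein, where normexp gave 0.34. Log2 ratios of Clec4e to NS went to -0.15 on CY and -0.04 on NAC + CY with the floor. Median centring of the arrays moved the median of all probes to -0.14 on CY against NS and to 0.11 on NAC + CY against CY, and no count of members called moved by over 1.5 times under it. The offset of normexp was not varied, and that run also took other spot signals as input, so their parts cannot be told apart. Causes other than the filter and the criteria themselves were not tested. No paired analysis was possible because each group has 1 array. Members dim on NS have only bounds, and with 1 array a condition a difference between mice and a treatment effect cannot be told apart.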

Other observations

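Other genes of neutrophil granules and mature neutrophils did not go one way between the NAC + CY and CY arrays, where S100a8, S100a9, Retnlg and Mmp8 were higher on NAC + CY. Of 15 late granule genes, 2 were called higher on NAC + CY, Chil3 (log2 ratio 1.74) and Hp (1.32), and 4 lower, Camp (-1.46, dim on NAC + CY), Ncf1 (-1.20), Anxa1 (-1.13) and Lyz2 (-0.77). Camp encodes a cathelicidin and Ncf1 a subunit of the phagocyte NADPH oxidase. Of 23 further genes of mature neutrophils, Wfdc21 was called higher (2.41) and 4 lower, Wfdc17 (-1.15), Slpi (-1.07), Alox5ap (-0.94) and Hdc (-0.87). Of 15 genes of calprotectin receptors and S100 relatives, S100a4 (-1.64), S100a10 (-1.08), S100a6 (-0.93) and S100a11 (-0.86) were called lower. Lyz2 and Anxa1 are carried by macrophages too, and 5 of 17 macrophage genes were lower in the same comparison, Lyve1 (-1.37) and Adgre1 (-0.74) among them. Their part in these values was not tested.

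Between acrolein and CY, Il1b was called higher on acrolein (log2 ratio 2.19, dim on CY, at least 4.56-fold) and Chil3 too (1.51), while Lcn2 (-1.75) and Hp (-3.41) were called lower with Chil1 (-2.75, dim on acrolein, at least 6.39-fold higher on CY). T and NK cell genes were higher on acrolein in 3 of 10, among them Gzma (at least 6.02-fold) and Cd3d (at least 6.08-fold), both dim on CY. In all, 1 of 15 late granule genes was higher and 4 lower, Anxa1 (-1.52) being the fourth, and of 24 further genes of mature neutrophils Il1b was higher and 4 were lower, Hdc (-2.11), Slpi (-1.85), Wfdc21 (-1.62) and Wfdc17 (-1.14). Platelet genes were lower on acrolein in 6 of 11, Ppbp (-4.06) among them.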
